A study of Homo sapiens with 12 samples.

Results

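Growth of LX2 with HCCLM3 was compared with growth of LX2 alone, in 6 of the 12 libraries of a study of human cells in a tumor-on-a-chip device. LX2 is labelled as a line of hepatic stellate cells and HCCLM3 as a line of hepatoma cells, both of wild-type genotype. The libraries of LX2 grown alone numbered 3, and so did those of LX2 that shared the chip with HCCLM3. No agent, time point or passage is given that would set the 6 libraries apart further. The labels do not say whether the 3 libraries of a group came from separate cultures, and the sources used here do not give how LX2 was parted from HCCLM3 before extraction. The p-values therefore speak only of variation among these 6 libraries, and that variation may be technical. In bulk libraries such as these, fewer cells of a type and less RNA per cell cannot be told apart. Of 32507 genes with a count in an LX2 library, 19823 had a count of 10 or more in at least 3 of the 6 libraries and were tested. In the interferon list, XAF1 lay just below that minimum, with 5, 10 and 12 counts in LX2 alone and 0 in each co-cultured library, and MX2 just above it, with 27, 16 and 35 counts alone against 10, 0 and 0 with HCCLM3.

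Stellate cells are the pericytes of the liver sinusoid. They store retinoids when quiescent, and when activated in injury or beside a tumor they turn into contractile cells that secrete collagen, proteases, cytokines and growth factors. Tumor and stroma signal to each other through secreted ligands, through contact-dependent receptors such as Notch, through the matrix between them, and through the nutrients, ions and oxygen that they share. The gene lists described here follow those routes.

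Total counts were 61836616 to 65314354 in the 3 libraries of LX2 alone and 64438991 to 69891842 in the 3 co-cultured ones. Mitochondrial genes took 6.67% to 6.78% of counts in the first group and 6.94% to 7.08% in the other. On the first principal component, with 49.0% of the variance, the groups stood apart, and the next, with 14.0%, parted LX2 alone replicate 2 from replicate 3. Of 22 stellate and fibroblast markers, 6 had no count in any library of LX2 alone, among them COL1A2, COL6A3 and SPARC, and 5 reached 1 FPKM (fragments per kilobase of transcript, scaled to the fragments mapped), so the name of the line is that of the labels. The sum over the 22 was 163 to 197 FPKM in LX2 alone and 166 to 198 FPKM with HCCLM3. Most of it was vimentin (VIM), the only 1 of the 22 with at least 10 FPKM in LX2 alone. The sum therefore says little of the other markers: of 13 tested, 3 rose and 3 fell (23.1% each, against 15.3% and 16.4% of all genes).

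Genes that HCCLM3 expresses and LX2 alone hardly does had higher counts in the co-cultured LX2 libraries. There were 57 genes with at least 20 FPKM in HCCLM3 alone and under 0.1 FPKM in LX2 alone, a choice that sets their low values there. Summed over these genes, a library of LX2 alone held 213 to 258 counts and a co-cultured library 5884 to 6536, so the groups did not overlap. The rise in LX2 was 0.558% of the mean level in HCCLM3 alone in the median gene, and 3.12% in the highest, the chemokine gene CXCL5. A rise of up to 3.12% of the level in HCCLM3 alone is called here a rise within the partner range. This limit rests on CXCL5: it is 2.43% without that gene and 1.01% over the 17 of these genes with at least 50 FPKM in HCCLM3 alone. Whether such a rise came from LX2 or from HCCLM3 cells or RNA in the sample cannot be told apart. CEACAM6, an adhesion molecule of epithelial tumors, showed the pattern: it had 0 counts in LX2 alone, stood at 3.42, 3.58 and 3.09 FPKM in co-culture, and was at 376 FPKM in HCCLM3 alone. The co-cultured values lay close together, at 0.895% of the HCCLM3 level. AGR2 and KRT19, further epithelial genes with 0 counts in LX2 alone, reached 0.232% and 0.158% of their HCCLM3 levels.

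Among the tested genes, 6283 passed (31.7%) in edgeR's two-sided quasi-likelihood test, at a p under 0.05 after Benjamini-Hochberg adjustment over all of them. In LX2 with HCCLM3, 3025 were higher (15.3% of those tested) and 3258 lower (16.4%), and over all genes tested the median log2 fold change was 0.01. Most differences were small: the median absolute log2 fold change of called genes was 0.51, and 1500 genes (7.57%) passed with an absolute value of at least 1. Of these, 880 were higher (4.44%) and 620 lower (3.13%). Rises within the partner range made up 3.47% of all called rises, 10.2% of those with a log2 fold change of at least 1 and 22.9% of those of at least 2, where 72 of 315 lay within it (the 315 being 1.59% of the genes tested). Measured against the higher of the levels in HCCLM3 alone and in co-cultured HCCLM3, 83 of the 315 did. With the limit at 2.43%, 86 of the 3025 rises, 77 of the 880 and 61 of the 315 lay within it, and with the limit at 1.01%, 51, 46 and 38 did. Of the genes named here as within the range, CD68 aside, CEACAM6, AGR2, KRT19, MMP7, AKR1B10, ALDH1A1 and CRABP2 lay within the lowest of these limits. COL6A1, CREB3L1, AXIN2, NKD1, FTL, ABCC2 and DHRS9 lay above it, at 1.28% to 3.03%. The plot of rises against the level in HCCLM3 sets these genes apart.

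**Figure D1:**
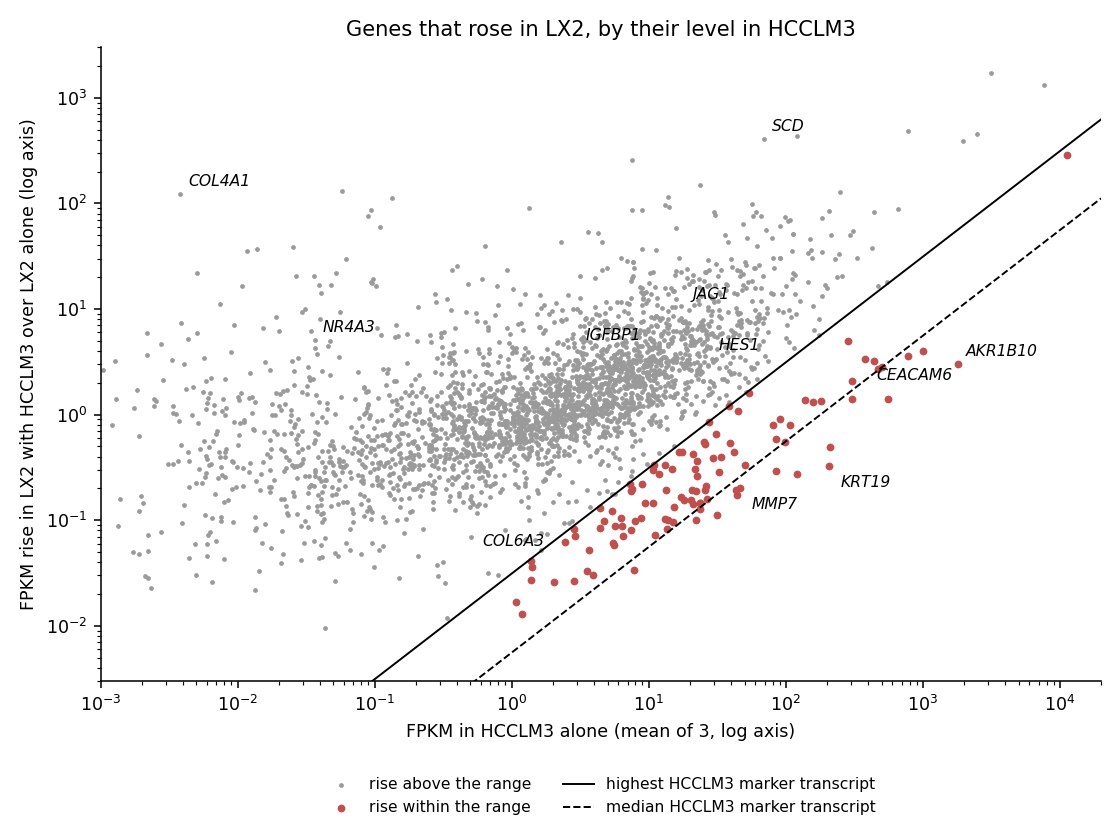
Each point is a gene that rose in LX2 with HCCLM3 (edgeR adjusted p under 0.05) and had a value above 0 in HCCLM3 alone; the horizontal axis is its mean FPKM in HCCLM3 alone and the vertical axis its rise in mean FPKM in LX2, both on log axes. The solid line marks the highest of the 57 HCCLM3 marker transcripts (3.12% of the HCCLM3 level) and the dashed line their median (0.558%); red points such as CEACAM6 and AKR1B10 lie under the solid line, and NR4A3, SCD and COL4A1 lie far above it.

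Rises were ranked by fold change among genes with at least 5 FPKM in the higher group. AC026336 (ENSG00000276122), a long noncoding RNA on chromosome 12, stood at 0.713, 0.876 and 0.792 FPKM alone and at 7.86, 8.27 and 8.10 FPKM in co-culture, a 9.93-fold difference. RHOV, an atypical small GTPase, went from 1.90 ± 0.185 to 15.3 ± 0.645 FPKM (mean ± SD, n = 3, as in all such values here). SCUBE1, a secreted protein with EGF-like domains, went from 1.18 ± 0.135 to 8.79 ± 0.225 FPKM. In each of these genes the lowest co-cultured library was several times the highest library alone. SLC16A6, a transporter of the monocarboxylate family, rose 6.20-fold to 107.5 ± 3.98 FPKM, and CCN5, a matricellular protein, rose from 7.64 ± 0.538 to 44.3 ± 0.615 FPKM. MARCOL rose from 3.55 ± 0.0697 to 19.9 ± 0.520 FPKM. All of these had under 4 FPKM in HCCLM3 alone. MIR22, at 3 counts over LX2 alone and 133 over the co-cultured group, lies wholly in an exon of its host gene MIR22HG, which differed by -0.13 on the log2 scale and did not pass (a gene named here after its values were seen), so the counts of MIR22 are uncertain.

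Ranked in the same way, the largest falls began with RANBP3L. RANBP3L, a nuclear export cofactor (ENSG00000164188, chromosome 5, 36246913 to 36302114, GRCh38), stood at 41.7, 38.8 and 43.0 FPKM alone and at 0.0960, 0.131 and 0.1497 FPKM in co-culture. Every co-cultured library thus held under 0.15 FPKM of a gene above 38 FPKM in every library alone (log2 fold change -8.37, SE 0.15; edgeR adjusted p = 6.52e-07). TNFSF15, a cytokine of the TNF family, fell 28.2-fold from 9.66 ± 0.335 FPKM. Complement component C3 fell 12.1-fold from 18.2 ± 0.215 to 1.53 ± 0.204 FPKM. ETNPPL, a lyase of phosphoethanolamine, FRMD3, of the FERM family, and RARRES2, the chemoattractant chemerin, fell by 4.21, 3.97 and 3.75 on the log2 scale. Counts of ZBED6CL (-3.97) may include those of LRRC61, which it overlaps on the same strand (-1.60; named here after its values were seen). ARPIN-AP3S2 is a readthrough gene whose exons are those of its neighbours; its libraries alone were uneven, at 1.39, 14.3 and 18.9 FPKM, and the edgeR call was lost without any single library but LX2 alone replicate 1 (adjusted p 0.0653 to 0.0900).

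Osmolyte genes held several of these falls. Cells in salty surroundings accumulate sorbitol, inositol, betaine and neutral amino acids under the transcription factor NFAT5, which offsets the osmotic pressure. Of 6 tested genes of osmolyte synthesis and uptake, 5 fell and none rose (83.3% against 16.4% of all genes fell). Their median log2 fold change was -2.07, against 0.01 over all tested genes. AKR1B1, aldose reductase, which makes sorbitol (ENSG00000085662, chromosome 7, 134442356 to 134459284), was at 747, 744 and 743 FPKM alone and at 33.9, 37.4 and 38.9 FPKM in co-culture. All 3 co-cultured libraries lay far below the 3 alone (20.7-fold lower; edgeR adjusted p = 2.63e-07). The betaine carrier SLC6A12 (ENSG00000111181, chromosome 12, 190077 to 214090) stood at 10.9, 10.7 and 10.3 FPKM alone and at 0.0272, 0.0303 and 0.0418 FPKM in co-culture. It was close to absent in every co-cultured library, with 45 counts over the group (log2 fold change -8.26, SE 0.13). SLC5A3, the inositol carrier, fell 10.8-fold from 34.0 ± 0.402 to 3.21 ± 0.0254 FPKM. MRPS6, which shares part of its exons with SLC5A3, fell from 34.2 ± 0.864 to 7.51 ± 0.417 FPKM; it is named here after its values were seen. The amino acid carrier SLC38A2 fell by 0.71 and PNPLA6, which makes glycerophosphocholine, by 0.65, while the taurine carrier SLC6A6 did not pass (0.00; edgeR adjusted p = 0.928).

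NFAT5 itself was at 2.45, 2.18 and 2.09 FPKM alone and at 2.40, 2.02 and 0.809 FPKM in co-culture, overlapping values that did not pass (edgeR adjusted p = 0.477). Among 15 genes of ion and water transport, 6 fell and 4 rose (40.0% and 26.7%, against 16.4% and 15.3% of all genes). ATP1B1, a beta subunit of the sodium pump, fell from 259.9 ± 22.4 to 56.8 ± 0.265 FPKM. The sodium-potassium-chloride carrier SLC12A2 fell by 0.95 and the glycerol and water channel AQP3 by 0.84. SGK1, a kinase that acts on sodium channels and carriers, rose from 12.02 ± 0.479 to 31.1 ± 0.318 FPKM. The whole list of 28 tested genes had 12 falls and 6 rises (42.9% and 21.4%, against the same shares of all genes).

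Sterol and fatty acid genes rose. SREBP factors are held in the endoplasmic reticulum when sterol is plentiful and move to the nucleus when it is scarce, where they switch on the enzymes of cholesterol and fatty acid synthesis. Of 44 tested genes, 32 rose and 2 fell (72.7% and 4.55% of those tested, against 15.3% and 16.4% of all genes), with a median of 0.92. No member lay within the partner range. Among regulators, INSIG1, which retains SREBP in the endoplasmic reticulum and is itself a target (ENSG00000186480, chromosome 7, 155297776 to 155310233), was at 6.47, 11.4 and 7.79 FPKM alone and at 51.3, 51.5 and 52.4 FPKM in co-culture. The libraries alone spread more than those in co-culture, and the groups did not overlap (5.93-fold; edgeR adjusted p = 0.000233). SREBF1 rose from 7.72 ± 0.653 to 15.6 ± 0.670 FPKM. SREBF2 differed little, by 0.12, and its call was lost without LX2 alone replicate 2 or 3 or LX2 with HCCLM3 replicate 1 or 2 (edgeR adjusted p 0.0545 to 0.0705). SCAP, INSIG2 and MYLIP did not pass, at -0.03, 0.11 and -0.11.

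Of 20 cholesterol synthesis genes, 16 rose and none fell. HMGCS1, the synthase that feeds the pathway, went from 12.7 ± 0.714 to 40.7 ± 0.0791 FPKM. IDI1 rose by 1.60, DHCR7 by 1.27 and MVD by 1.24. NSDHL, EBP and PMVK did not pass, at -0.11, 0.18 and 0.01. In fatty acid synthesis 8 of 10 rose. The desaturase SCD (ENSG00000099194, chromosome 10, 100347233 to 100364826) went from 189, 190.3 and 188 FPKM alone to 591, 596 and 594 FPKM in co-culture. It was the most abundant gene of the list in both groups, and replicates differed by a few FPKM (3.08-fold, log2 fold change 1.62, SE 0.014). Fatty acid synthase FASN rose from 42.6 ± 1.15 to 103.7 ± 2.49 FPKM, while ELOVL6 and FADS2 did not pass (-0.04 and 0.12). Of the sterol export genes, ABCA1 rose by 1.33 and ABCG1 fell by 1.47, and the liver X receptor NR1H2 fell by 0.30, a call lost without LX2 alone replicate 1 (edgeR adjusted p = 0.0584).

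**Figure D2:**
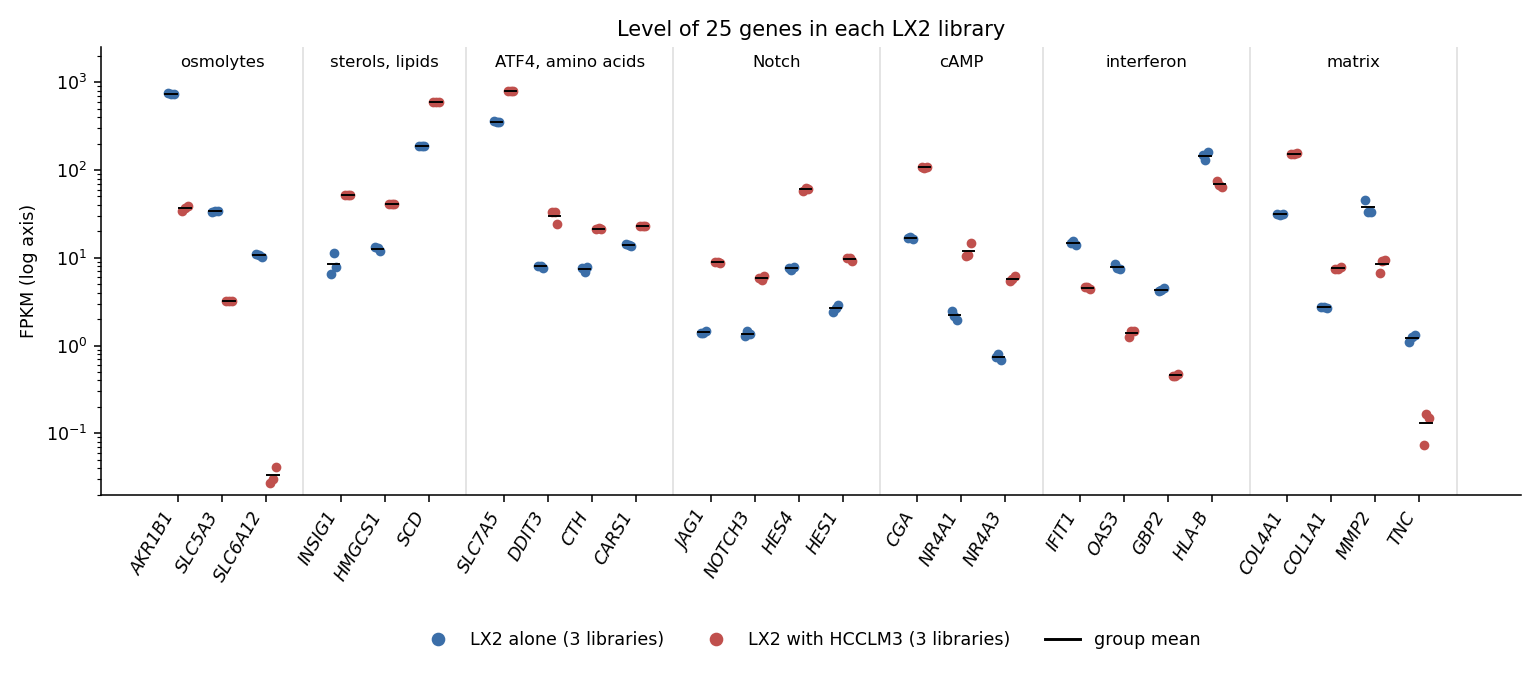
FPKM on a log axis of 25 genes in each library: blue points are the 3 libraries of LX2 alone, red points the 3 libraries of LX2 with HCCLM3, and black bars the group means. The 25 were picked from called genes, and their groups do not overlap, as in 47.8% of all tested genes on the CPM scale. They include the fall of SLC6A12 (10.6 to 0.0331 FPKM) and the rise of SCD (189 to 594 FPKM).

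Genes of amino acid supply also rose. ATF4 is translated when amino acids run short or the endoplasmic reticulum or mitochondria are stressed, and with C/EBP partners it switches on transporters, synthetic enzymes and tRNA synthetases. Of 49 tested genes, 41 rose and none fell (83.7% against 15.3% of all genes), with a median of 0.55 and with no member within the partner range. Promoters were read from RefSeq for the list members that had one, 250 bases before to 50 after the annotated start (GRCh38.p14). The C/EBP-ATF element, searched as TGATGNAA on both strands and allowed to overlap other motifs, was found in 13 of 40 such promoters (32.5%), against 3.67% of all 27305 promoters. All 13 belonged to the 35 genes that rose, and 0 of the 5 that did not pass held it. These 5 are too few to tell whether the element went with the rise. The promoters of SLC3A2 and CARS1, the members with a match and the smallest p, are shown because each carries 1 match close to its start, in capitals (here as the reverse complement of the searched letters).

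SLC3A2 promoter (chr11:62881449-62881748, plus strand): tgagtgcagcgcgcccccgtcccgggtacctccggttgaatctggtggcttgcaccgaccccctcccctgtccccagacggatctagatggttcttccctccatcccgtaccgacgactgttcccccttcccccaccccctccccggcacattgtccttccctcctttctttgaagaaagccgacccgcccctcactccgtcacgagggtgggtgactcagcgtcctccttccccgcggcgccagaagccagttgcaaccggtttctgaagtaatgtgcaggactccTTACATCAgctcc

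CARS1 promoter (chr11:3057374-3057673, minus strand): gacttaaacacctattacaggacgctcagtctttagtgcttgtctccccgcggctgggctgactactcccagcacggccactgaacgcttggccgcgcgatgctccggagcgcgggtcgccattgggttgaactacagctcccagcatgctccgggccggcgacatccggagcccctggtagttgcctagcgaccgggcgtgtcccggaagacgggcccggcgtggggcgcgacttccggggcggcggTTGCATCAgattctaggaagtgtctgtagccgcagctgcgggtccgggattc

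A match describes letters in this window and shows no binding. The lists were chosen by pathway, so a higher share than in all promoters may follow from that choice, here and in the lists below. The sterol regulatory element, searched as TCACNCCAC, was in 1 of 35 promoters of the sterol list (SREBF2; 2.86%) against 1.15% of all. The tonicity-responsive enhancer, searched by its consensus, was in 1 of 22 promoters of the osmolyte and ion list (SLC38A2; 4.55%) against 5.02% of all.

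Among the regulators, DDIT3, the stress factor CHOP (ENSG00000175197, chromosome 12, 57516588 to 57521737), was at 8.11, 8.17 and 7.61 FPKM alone and at 32.9, 33.5 and 24.1 FPKM in co-culture. The co-cultured replicate 3 was lowest of its group and still above every library alone (3.71-fold; edgeR adjusted p = 0.000147). ATF3, a repressor induced by ATF4, rose by 1.45, CHAC1, which degrades glutathione, by 1.13, PPP1R15A, which restores translation, by 1.05, and the mTORC1 inhibitor SESN2 by 0.76. DDIT4, another inhibitor of mTORC1, rose from 250.8 ± 1.48 to 511 ± 9.54 FPKM; it shares 41.2% of its exon bases with an antisense gene, and without strand their reads cannot be told apart. ATF4 transcript was at 17.0, 17.9 and 18.4 FPKM alone and at 22.2, 23.1 and 33.1 FPKM in co-culture. The groups did not overlap, but the call (log2 fold change 0.53, edgeR adjusted p = 0.0414) was lost without LX2 alone replicate 1, 2 or 3 or LX2 with HCCLM3 replicate 2 (edgeR adjusted p 0.0501 to 0.110) and the difference was 0.33 without LX2 with HCCLM3 replicate 3. ATF5 did not pass (-0.04).

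Of 9 tested transporters, 7 rose. SLC7A5, the exchanger for large neutral amino acids (ENSG00000103257, chromosome 16, 87830023 to 87869507), went from 363, 350.2 and 354 FPKM to 790.0, 790.5 and 803 FPKM, and its heavy chain SLC3A2 from 85.8 ± 2.55 to 161 ± 2.99 FPKM. Both chains of this exchanger were higher in all 3 co-cultured libraries than in any library alone. The cystine exchanger SLC7A11 rose by 0.51 and SLC1A4 by 0.66, while SLC1A5 and SLC43A1 did not pass (0.46 and 0.30). In synthesis, 7 of 12 rose: CTH, which makes cysteine, from 7.47 ± 0.509 to 21.4 ± 0.481 FPKM, PSPH by 0.90, the folate enzyme MTHFD2 by 0.82, ASNS by 0.66 and the serine enzyme PSAT1 by 0.63. Counts of ASNS and MTHFD2 are less certain, since other genes overlap 44.6% and 33.2% of their exon bases. ALDH1L2, GPT2, ALDH18A1, CBS and PYCR1 did not pass, at 1.11, 0.49, -0.07, -0.09 and 0.07. All 12 cytosolic tRNA synthetases tested rose, by 0.14 (LARS1) to 0.91 (WARS1), and 6 of them held the C/EBP-ATF element. The secreted factors STC2 and GDF15 rose to 50.2 ± 0.853 and 138 ± 1.88 FPKM, and FGF21, a stress hormone, from 19 counts over the group to 124.

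Interferon-induced genes fell. Type I interferon acts through a complex that holds STAT2 and IRF9 and binds the interferon-stimulated response element in front of antiviral genes. Of 53 tested genes, 39 fell and 3 rose (73.6% and 5.66%, against 16.4% and 15.3% of all genes), and the median log2 fold change was -1.18. The response element, searched on both strands as GAAA, any 2 bases and GAAA and allowed to overlap other motifs, was in 22 of 37 promoters (59.5%) against 3.65% of all. It was held by 19 of the 29 members that fell, by 3 of the 6 that did not pass and by 0 of the 2 that rose. IFIT1 and OAS3 are printed as the members that fell with the smallest p among those with a match. Both carry 2 matches, in capitals, which in IFIT1 lie 116 and 103 bases before the start and read on the minus strand.

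IFIT1 promoter (chr10:89392373-89392672, plus strand): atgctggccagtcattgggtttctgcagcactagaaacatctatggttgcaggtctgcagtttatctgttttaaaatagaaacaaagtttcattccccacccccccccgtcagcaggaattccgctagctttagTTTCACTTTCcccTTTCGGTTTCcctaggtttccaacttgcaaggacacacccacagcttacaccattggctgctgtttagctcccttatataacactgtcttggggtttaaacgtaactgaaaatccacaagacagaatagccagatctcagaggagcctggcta

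OAS3 promoter (chr12:112938224-112938523, plus strand): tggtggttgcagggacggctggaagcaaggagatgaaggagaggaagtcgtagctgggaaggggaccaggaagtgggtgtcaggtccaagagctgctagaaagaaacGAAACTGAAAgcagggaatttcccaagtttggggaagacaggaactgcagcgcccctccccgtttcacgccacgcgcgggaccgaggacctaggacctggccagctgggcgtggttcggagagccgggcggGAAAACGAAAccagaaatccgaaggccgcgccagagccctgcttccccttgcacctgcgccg

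Of 30 tested effectors, 27 fell and 1 rose. IFIT1, which binds viral RNA ends (ENSG00000185745, chromosome 10, 89392546 to 89406487), was at 14.5, 15.4 and 14.0 FPKM alone and at 4.62, 4.62 and 4.45 FPKM in co-culture. OAS3, which makes the activator of RNase L (ENSG00000111331, chromosome 12, 112938444 to 112968054), was at 8.43, 7.62 and 7.51 FPKM alone and at 1.25, 1.46 and 1.46 FPKM in co-culture. In both genes the 3 co-cultured libraries were the lowest (3.28-fold and 5.75-fold; edgeR adjusted p = 4.78e-06 and 7.54e-06). The guanylate-binding protein GBP2 fell 9.69-fold from 4.35 ± 0.162 FPKM. IFI35 was the effector that rose, by 1.14, with 8.28 FPKM in HCCLM3 alone. MX1 and MX2 did not pass, at 0.45 and -2.98. In the ISG15 system 5 of 6 fell, with ISG15 itself, a ubiquitin-like modifier, going from 110.3 ± 3.10 to 53.01 ± 3.35 FPKM, and UBA7 did not pass (-0.48).

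Among sensors of viral RNA, DDX58 (RIG-I) fell from 6.45 ± 0.328 to 1.80 ± 0.107 FPKM and IFIH1 (MDA5) from 3.57 ± 0.131 to 0.884 ± 0.105 FPKM. The DNA sensor CGAS (0.20) and the adaptor MAVS (0.27) rose a little, and the call of CGAS was lost without any single library but LX2 alone replicate 1 (edgeR adjusted p 0.0687 to 0.0942). STING1 and TLR3 did not pass, at -0.15 and -0.21. In signalling, IRF7 fell by 1.57, IRF9 (48.4% of whose exon bases lie in another gene as well) by 1.18, IRF1 by 0.54 and the receptor chain IFNAR1 by 0.25. STAT2 was at 5.81, 5.56 and 5.55 FPKM alone and at 6.34, 5.77 and 5.21 FPKM in co-culture, values that overlapped. Of the antigen presentation genes, 14 of 15 fell and none rose (93.3% against 16.4% of all genes fell; median -0.68). HLA-B, a class I heavy chain, was at 148, 129 and 162 FPKM alone and at 75.02, 67.2 and 64.4 FPKM in co-culture. The peptide transporter TAP1 fell by 0.94, the immunoproteasome subunit PSMB9 by 1.40 and NLRC5, the activator of class I genes, by 1.12, and ERAP1 did not pass (-0.45). HLA genes are near-identical in part and may share reads. Leukocyte markers summed to 24.4 to 27.9 FPKM alone and 23.9 to 28.0 FPKM in co-culture. Only 1 of the 17 reached a mean of 1 FPKM in either group, so the sum says little of the others. Of 8 tested, 1 rose (12.5% against 15.3% of all genes) and none fell.

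Genes of NF-kB signalling moved in both directions. Of 13 factors and feedback genes, 6 fell and 2 rose (46.15% and 15.4%, against 16.4% and 15.3% of all genes). NFKBIA, the inhibitor that NF-kB itself induces (ENSG00000100906, chromosome 14, 35401513 to 35404749), was at 52.9, 47.5 and 48.9 FPKM alone and at 8.97, 10.5 and 8.39 FPKM in co-culture (5.46-fold lower; edgeR adjusted p = 1.21e-05). BIRC3, an inhibitor of cell death, fell by 1.63 and NFKBIE by 1.08. TNFAIP3, another feedback inhibitor, went the other way, from 7.68 ± 0.436 to 18.5 ± 0.110 FPKM, and NFKBIZ rose by 1.48. REL, RELA, BIRC2, ICAM1 and TNFAIP2 did not pass, at -0.44, 0.21, -0.36, 0.09 and -0.18. Of 19 tested cytokines and chemokines, 6 fell and 4 rose (31.6% and 21.05%, against the same shares of all genes). The neutrophil chemokine CXCL8 fell from 2.93 ± 0.421 to 0.536 ± 0.126 FPKM, the monocyte chemokine CCL2 from 278 counts over the group to 17, and the T cell chemokine CXCL10 from 134 counts to 15. The death ligand TNFSF10 (TRAIL) fell by 1.92. IL11, a cytokine of the IL-6 family, rose by 1.39, CXCL2 by 0.79, IL18 by 0.48 and LIF by 0.40. IL6 did not pass (0.31).

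Notch signalling passes between touching cells: a ligand such as JAG1 on a cell frees the intracellular part of the receptor on the next, which joins RBPJ and switches on HES and HEY repressors. JAG1 (ENSG00000101384, chromosome 20, 10637684 to 10673999) was at 1.37, 1.40 and 1.47 FPKM alone and at 8.85, 8.96 and 8.80 FPKM in co-culture. It was uniformly low alone and uniformly high in co-culture (6.13-fold; edgeR adjusted p = 6.05e-07), with 23.9 FPKM in HCCLM3 alone, of which the rise is 31.3%. DLL4 rose from 30 to 87 counts over the group, a call lost without any 1 of the 6 libraries (edgeR adjusted p 0.0692 to 0.132), and JAG2 and DLL3 did not pass (-0.39 and -0.02). All 4 receptors rose. NOTCH3, the receptor of vascular smooth muscle and pericytes (ENSG00000074181, chromosome 19, 15159038 to 15200995), was at 1.27, 1.47 and 1.37 FPKM alone and at 5.86, 5.54 and 6.20 FPKM in co-culture, against 0.0455 FPKM in HCCLM3 alone. NOTCH2 rose by 0.19. The call of NOTCH1 (0.18) was lost without any single library but LX2 with HCCLM3 replicate 2 (edgeR adjusted p 0.0784 to 0.0978). That of NOTCH4 (1.27) was lost without any but LX2 alone replicate 3 (edgeR adjusted p 0.05997 to 0.0701). Of the modifiers, LFNG, which changes ligand preference, fell from 2.90 ± 0.0858 to 0.829 ± 0.0195 FPKM and the coactivator MAML2 by 1.09.

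Of 8 tested Notch targets, 6 rose and 1 fell. The RBPJ element, searched as GTGGGAA on both strands and allowed to overlap other motifs, was in the promoters of HES4, HES1, HEY2 and HEYL, 4 of 22 list members with a promoter (18.2%) against 6.28% of all promoters. HES4 and HES1 are shown as the pair with the smallest p, with the match in capitals.

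HES4 promoter (chr1:1000048-1000347, minus strand): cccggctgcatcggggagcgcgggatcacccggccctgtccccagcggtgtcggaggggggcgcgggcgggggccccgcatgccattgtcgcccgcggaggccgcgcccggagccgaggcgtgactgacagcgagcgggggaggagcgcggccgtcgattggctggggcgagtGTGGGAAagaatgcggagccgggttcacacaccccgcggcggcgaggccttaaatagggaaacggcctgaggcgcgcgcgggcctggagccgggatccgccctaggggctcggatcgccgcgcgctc

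HES1 promoter (chr3:194135898-194136197, plus strand): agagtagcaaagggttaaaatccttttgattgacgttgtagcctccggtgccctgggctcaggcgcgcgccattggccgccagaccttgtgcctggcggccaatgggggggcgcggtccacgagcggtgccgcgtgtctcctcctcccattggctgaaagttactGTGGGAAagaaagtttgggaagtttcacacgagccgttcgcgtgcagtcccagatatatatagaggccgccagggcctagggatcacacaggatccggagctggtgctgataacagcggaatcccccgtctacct

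HES4 (ENSG00000188290, chromosome 1, 998962 to 1000172) was at 7.63, 7.33 and 7.78 FPKM alone and at 58.4, 61.7 and 60.5 FPKM in co-culture. HES1 (ENSG00000114315, chromosome 3, 194136148 to 194138732) was at 2.42, 2.67 and 2.89 FPKM alone and at 9.89, 10.1 and 9.23 FPKM in co-culture. For both, every co-cultured library was above every library alone (7.76-fold and 3.58-fold; edgeR adjusted p = 6.40e-07 and 3.27e-05). HEY2 rose from 75 counts over the group to 616, HEYL from 12 to 143 (a call lost without LX2 alone replicate 3, edgeR adjusted p = 0.0592) and HEY1 by 1.34, while HES7, the oscillating repressor of somite formation, fell by 1.09. Over the whole list 13 of 26 rose (50.0%, against 15.3% of all genes) and 5 fell (19.2%, against 16.4%; median 0.22), and 8 rose without LX2 with HCCLM3 replicate 1 or without its replicate 3.

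Genes that cAMP induces included the alpha chain of the glycoprotein hormones. Cyclic AMP acts through protein kinase A on CREB, which binds the element TGACGTCA. Of 12 target genes, 9 rose and 1 fell, where 15.3% of all genes rose and 16.4% fell. The whole list of 22 tested genes had 11 rises and 3 falls, against the same shares of all genes. CGA (ENSG00000135346, chromosome 6, 87085498 to 87095106) was at 17.0, 17.4 and 16.4 FPKM alone and at 109, 106.5 and 107 FPKM in co-culture, and at 0 in HCCLM3 alone. The replicates of each group differed by a few FPKM (6.23-fold; edgeR adjusted p = 2.63e-07). None of the 7 beta chain genes that pair with CGA in hormones had enough counts to be tested. The element, a palindrome, was found in 3 of 20 promoters (CGA, DUSP1 and PDE4A; 15.0%) against 1.98% of all. The CGA promoter is printed because it holds 2 copies, starting 142 and 124 bases before the start.

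CGA promoter (chr6:87095057-87095356, minus strand): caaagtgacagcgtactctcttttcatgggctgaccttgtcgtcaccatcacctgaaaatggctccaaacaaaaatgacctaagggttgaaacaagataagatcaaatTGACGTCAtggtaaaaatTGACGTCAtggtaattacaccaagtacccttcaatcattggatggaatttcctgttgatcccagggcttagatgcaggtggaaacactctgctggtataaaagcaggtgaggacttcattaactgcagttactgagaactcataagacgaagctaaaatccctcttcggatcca

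All 3 orphan nuclear receptors of the NR4A family rose. NR4A3 (ENSG00000119508, chromosome 9, 99821855 to 99866891) was at 0.735, 0.801 and 0.678 FPKM alone and at 5.40, 5.77 and 6.21 FPKM in co-culture. NR4A1 went from 2.21 ± 0.266 to 12.1 ± 2.36 FPKM, and NR4A2 rose by 0.72. The salt-inducible kinase SIK1, which feeds back on CREB coactivators, rose from 35.6 ± 0.345 to 75.5 ± 1.62 FPKM, the G protein regulator RGS2 by 1.10 and the phosphatase DUSP1 by 0.64. PDE4B, a phosphodiesterase, fell by 0.40. CREM and FOSB did not pass (0.20 and 0.60). Among 10 genes of the pathway itself 2 rose and 2 fell, close to the shares of all genes (15.3% and 16.4%). The rise of CREB3L1 (1.86) lay within the partner range, and CREB1 did not pass (0.11).

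The stellate cell is known for fibrillar collagen in scar tissue, and for the network collagen IV of the sinusoid wall. Of 7 basement membrane collagens, 3 rose and 1 fell (42.9% and 14.3%, against 15.3% and 16.4% of all genes). COL4A1 (ENSG00000187498, chromosome 13, 110148963 to 110307157) was at 31.4, 30.6 and 31.5 FPKM alone and at 152, 153 and 155 FPKM in co-culture, and at 0.00382 FPKM in HCCLM3 alone. COL4A2, its partner in the collagen IV trimer, was at 51.3, 50.7 and 48.8 FPKM alone and at 110.1, 111 and 110.0 FPKM in co-culture. The pair rose 4.82-fold and 2.15-fold, and COL4A1 was below COL4A2 in the libraries alone and above it in co-culture. The proteoglycan perlecan (HSPG2) rose by 0.65. Among laminins and linkers LAMA3 rose by 0.41, and LAMB3, agrin (AGRN), LAMC1 and LAMA5 fell by 0.93, 0.32, 0.14 and 0.13. No receptor of the basement membrane rose and 5 of 9 fell (55.6% against 16.4% of all genes). Integrin beta 4 (ITGB4) fell from 5.90 ± 0.297 to 1.99 ± 0.058 FPKM, BCAM by 0.80, ITGA6 and dystroglycan (DAG1) by 0.46 each and ITGA3 by 0.45. ITGA1, ITGA2, ITGB1 and ITGA7 did not pass, at -0.10, -0.73, -0.25 and -0.28.

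In the interstitial matrix, 12 of 26 tested genes rose and 9 fell (46.15% and 34.6%, against 15.3% and 16.4% of all genes). COL1A1, the main chain of type I collagen (ENSG00000108821, chromosome 17, 50184101 to 50201632), was at 2.75, 2.73 and 2.67 FPKM alone and at 7.47, 7.38 and 7.83 FPKM in co-culture. Its partner chain COL1A2 had 0 counts alone and 4 counts over the co-cultured group, so the rise of COL1A1 (log2 fold change 1.44, SE 0.044; edgeR adjusted p = 4.78e-06) stood without it. COL5A1 rose from 36.2 ± 0.441 to 58.1 ± 0.480 FPKM and fibronectin (FN1) by 0.75. The rise of FN1 was 11.3% of its level in HCCLM3 alone. Those of VCAN (3.58%) and of COL6A3, from 0 to 447 counts over the group (3.94%), lay just above the partner range, and that of COL6A1 lay within it. Tenascin C (TNC) was at 1.11, 1.25 and 1.33 FPKM alone and at 0.0738, 0.164 and 0.151 FPKM in co-culture. COL3A1 fell by 1.70, lumican (LUM) by 1.96, thrombospondin 1 (THBS1) by 0.63 and COL12A1 by 0.46. Of the enzymes that modify collagen, the prolyl hydroxylases P4HA1 and P4HA2 rose by 0.90 and 0.62, while the lysyl hydroxylase PLOD2 and the cross-linking oxidases LOXL2 and LOXL4 fell by 0.64, 1.12 and 1.38. LOXL2 was the most abundant of them, with a mean of 143 ± 7.10 FPKM in LX2 alone and 67.2 ± 1.02 FPKM with HCCLM3.

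**Figure D3:**
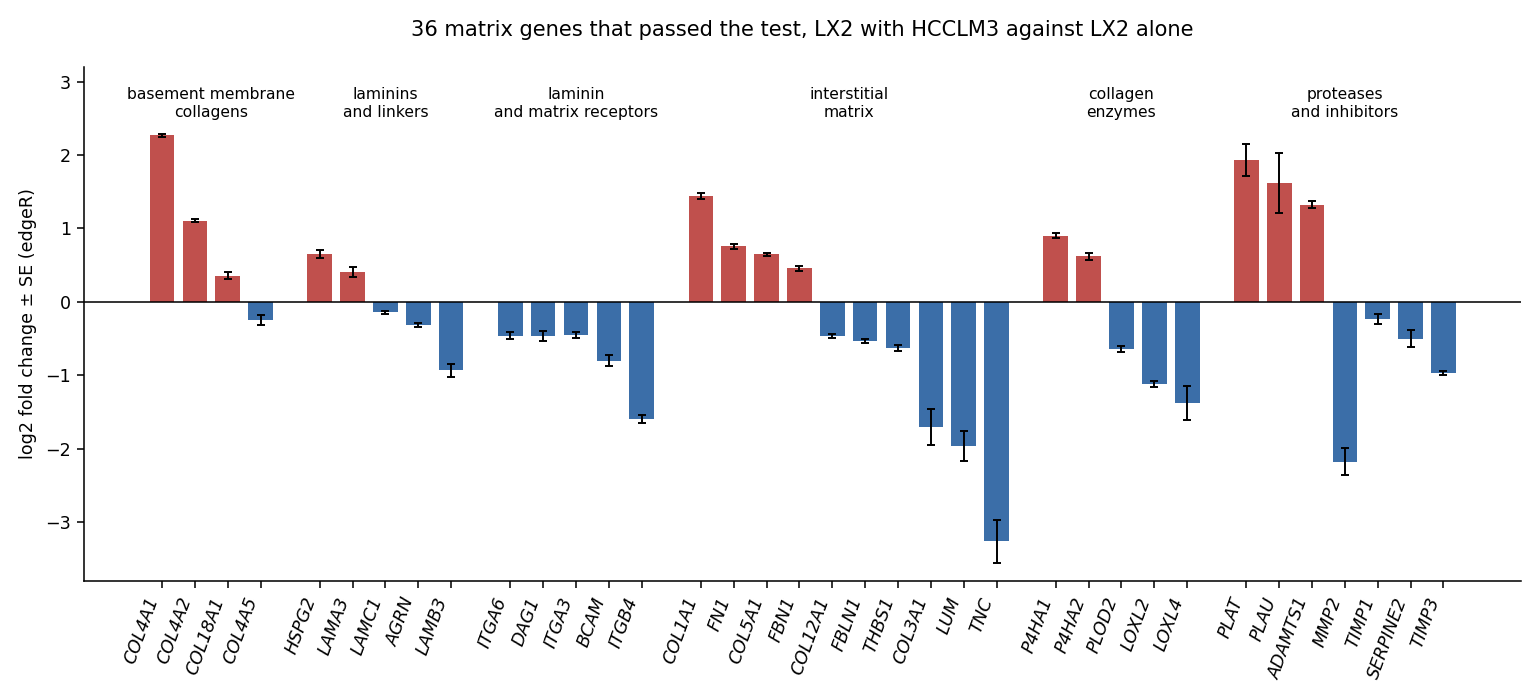
Bars give the log2 fold change (LX2 with HCCLM3 against LX2 alone) of 36 matrix genes that passed the test. Error bars give the standard error, derived as the absolute log2 fold change divided by the square root of edgeR's F statistic. A selection of the called members is drawn, without those within the partner range. Collagen IV chains COL4A1 (2.27) and COL4A2 (1.11) rose, all 5 receptors drawn fell, and TNC (-3.26) and MMP2 (-2.17) fell most.

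Among proteases, the gelatinase MMP2, which cleaves collagen IV (ENSG00000087245, chromosome 16, 55389700 to 55506239), was at 45.3, 33.5 and 33.5 FPKM alone and at 6.75, 9.30 and 9.35 FPKM in co-culture. It was lower in every co-cultured library (4.51-fold; edgeR adjusted p = 0.000269). ADAMTS1, which cleaves proteoglycans, rose from 6.01 ± 0.366 to 15.4 ± 0.244 FPKM. The plasminogen activators PLAT and PLAU rose by 1.93 and 1.62 from under 0.4 FPKM in each library, and the call of PLAU was lost without LX2 alone replicate 3 or LX2 with HCCLM3 replicate 1 or 2 (edgeR adjusted p 0.0735 to 0.0768); the rise of PLAU was 3.33% of its level in HCCLM3 alone and that of MMP14 3.85%, just above the partner range. MMP7 rose within that range. Of 6 protease inhibitors 4 fell and 1 rose (66.7% and 16.7%, against 16.4% and 15.3% of all genes). TIMP3 fell from 62.5 ± 0.129 to 32.5 ± 0.425 FPKM. The fall of TIMP1 (-0.23) was lost without any library of LX2 alone or without LX2 with HCCLM3 replicate 2 (edgeR adjusted p 0.0857 to 0.1065), and was -0.15 without LX2 with HCCLM3 replicate 1. The contractile marker ACTA2, smooth muscle actin, rose from 1.37 ± 0.0777 to 2.81 ± 0.387 FPKM. An antisense gene covers 30.1% of its exon bases. Vimentin (VIM), at 175 ± 18.7 and 167 ± 15.9 FPKM, did not pass. Over 26 actin cytoskeleton genes, 7 rose and 8 fell (26.9% and 30.8%, against 15.3% and 16.4% of all genes). RHOB rose from 142 ± 3.03 to 291 ± 2.85 FPKM and filamin C (FLNC) rose by 0.89, and the light chain MYL6 fell by 1.08.

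Ligands of the growth factor families moved singly. Of 35 tested genes of the TGF-beta and BMP list, 8 rose and 11 fell (22.9% and 31.4%, against 15.3% and 16.4% of all genes). TGFB1 was at 49.5, 48.5 and 50.0 FPKM alone and at 47.6, 47.8 and 48.0 FPKM in co-culture, and did not pass (log2 fold change -0.07). SMAD3 rose from 5.94 ± 0.249 to 11.7 ± 0.328 FPKM and ID3, a BMP target, from 36.4 ± 1.93 to 87.5 ± 2.67 FPKM, while ID1 fell by 0.63. Inhibitors and latent TGF-beta binding proteins were counted together. Of 11 tested, 6 fell (54.5% against 16.4% of all genes) and 1 rose (9.09% against 15.3%). Falls included the inhibitors noggin (NOG) by 2.12, BAMBI by 1.15, SMAD6 by 0.74 and SMAD7 by 0.52. TGFB2 was at 35 counts over the group alone and 130 in co-culture, values that overlapped between the groups and did not pass. In the Wnt list 6 of 19 rose and 3 fell (31.6% and 15.8%, against the same shares of all genes). WNT5A, a ligand of the non-canonical branch, fell from 72.7 ± 4.01 to 22.4 ± 0.862 FPKM, and WNT10B rose from 2.50 ± 0.236 to 9.60 ± 0.434 FPKM. AXIN2 and NKD1, feedback targets, rose within the partner range, and the call of AXIN2 was lost without LX2 alone replicate 3 or LX2 with HCCLM3 replicate 1 or 2 (edgeR adjusted p 0.0564 to 0.0617).

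Among EGF ligands, epiregulin (EREG) rose from 78 counts over the group to 1359 (log2 fold change 4.02, and 4.74 without LX2 alone replicate 1), which was 5.36% of its HCCLM3 level of 17.2 FPKM; amphiregulin (AREG) and HBEGF did not pass (0.24 and 0.74). IGFBP1, a carrier of insulin-like growth factors made by hepatocytes, had 0 counts alone and 4.16, 4.88 and 3.81 FPKM in co-culture, with 1703 counts over the group. This was 41.0% of its level of 10.4 FPKM in HCCLM3 alone, far above the partner range. That range is set against HCCLM3 grown alone and does not cover a change of HCCLM3 itself in co-culture. Of 60 called rises with 0 counts in LX2 alone, 28 lay within the range. Which cells the IGFBP1 counts came from was not tested. IGFBP7 rose from 159.9 ± 12.4 to 247 ± 4.16 FPKM. FGF2 fell by 0.84 and PDGFC by 1.13. VEGFA rose by 0.11, and the call was lost without any single library but LX2 with HCCLM3 replicate 1 (edgeR adjusted p 0.0627 to 0.106). In the ERK feedback list, DUSP5 rose by 1.41 and ERRFI1 by 1.05, and SPRY2 fell by 1.77. Of 19 immediate early genes, 4 rose and 7 fell (21.05% and 36.8%, against 15.3% and 16.4% of all genes). EGR1 rose by 0.70, JUN fell from 30.5 ± 0.253 to 13.3 ± 0.657 FPKM and KLF2 fell by 1.45. MYC was at 6.93, 32.5 and 3.30 FPKM alone and at 2.61, 2.17 and 2.16 FPKM in co-culture, where LX2 alone replicate 2 stood far above the rest, and did not pass (edgeR adjusted p = 0.0523). Of 8 regulators of epithelial-mesenchymal transition, 2 rose and 2 fell, against 15.3% and 16.4% of all genes. SNAI1 rose from 1.99 ± 0.136 to 8.78 ± 0.714 FPKM and SNAI2 by 0.89. TWIST2 fell by 1.23, and CDH2 (N-cadherin) also fell. The call of CDH2 was lost without any single library but LX2 with HCCLM3 replicate 1. ZEB1, ZEB2 and TWIST1 did not pass. The YAP and TEAD targets CCN1 and CCN2 fell by 1.13 and 0.57. Their list had 4 rises and 6 falls among 18 (22.2% and 33.3%, against the same shares of all genes).

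**Figure D4:**
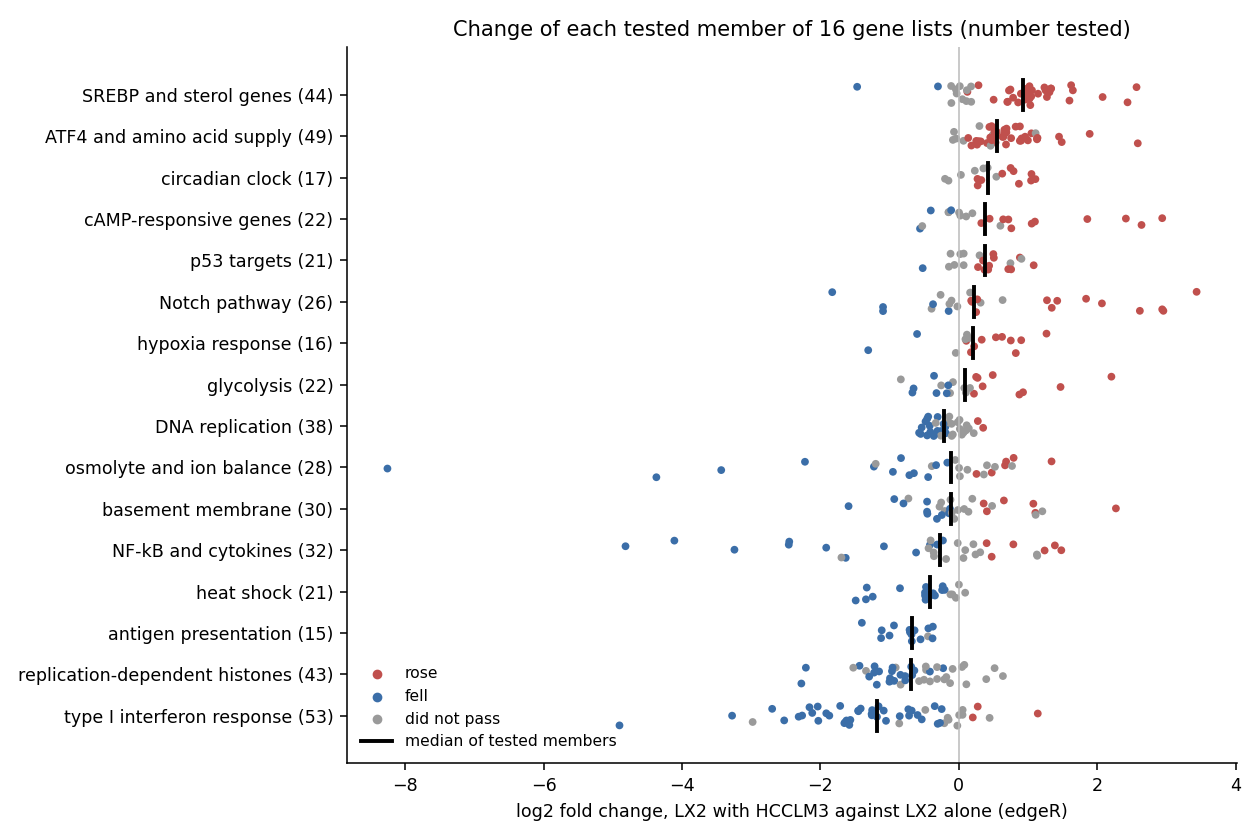
Each point is a tested member of the gene list named at the left (number tested in parentheses), placed by its log2 fold change in LX2 with HCCLM3 against LX2 alone: red rose, blue fell, grey did not pass, and the black bar is the list's median. The medians run from 0.92 for SREBP and sterol genes to -1.18 for the type I interferon response; the lists share the same 6 libraries.

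Cell cycle genes changed by small amounts, and more of them fell than rose. Of 38 DNA replication genes, 19 fell and 2 rose (50.0% and 5.26%, against 16.4% and 15.3% of all genes), with a median of -0.21. FEN1, which trims Okazaki fragments, was at 76.8, 78.2 and 81.2 FPKM alone and at 57.3, 53.7 and 55.1 FPKM in co-culture. The helicase subunit MCM5 fell by 0.48. Of 30 mitosis genes, 11 fell and 2 rose (36.7% and 6.67%, against the same shares), with a median of -0.17. Falls included the kinases BUB1B (-0.60) and CDK1 (-0.47) and topoisomerase TOP2A (-0.39). MKI67 was at 21.0, 11.1 and 21.2 FPKM alone and at 23.8, 18.2 and 23.9 FPKM in co-culture and did not pass (0.28). Of 43 histone genes of the replication clusters, 22 fell and none rose (51.2% against 16.4% of all genes fell; median -0.69). H2BC21 went from 17.7 ± 0.889 to 7.76 ± 0.522 FPKM and H2BC5 from 19.6 ± 0.364 to 8.54 ± 0.558 FPKM. Most histone messages lack a poly(A) tail and poly(A) RNA was sequenced, and their genes are near-identical copies. Heat shock genes fell in 16 of 21 and rose in none (76.2% against 16.4% of all genes fell; median -0.42). The constitutive chaperone HSPA8 was at 292, 273 and 275 FPKM alone and at 121, 102 and 118 FPKM in co-culture, with the lowest library alone above the highest in co-culture. HSPH1 fell by 1.34 and HSPA1A and HSPA1B, near-identical copies, by 1.49 and 1.24; another gene overlaps 36.5% of the exon bases of HSPA1B. Of 14 chaperones of the endoplasmic reticulum, 2 rose and 2 fell (14.3% each, against 15.3% and 16.4% of all genes), HSPA5 by 0.34. The sensor ERN1 (IRE1) rose from 0.380 ± 0.0251 to 1.07 ± 0.0421 FPKM.

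Glycolysis genes moved in both directions, with 9 rises and 6 falls among 22 (40.9% and 27.3%, against 15.3% and 16.4% of all genes). The glucose carrier SLC2A3 (ENSG00000059804, chromosome 12, 7919230 to 7936187) was at 10.8, 10.4 and 10.0 FPKM alone and at 50.1, 48.8 and 48.1 FPKM in co-culture, and at 0.0254 FPKM in HCCLM3 alone. SLC2A1, the commoner carrier, did not pass (-0.25). Hexokinase HK2 and the aldolases ALDOC and ALDOA rose by 0.88, 1.47 and 0.93, and HK1, the pyruvate kinase PKM and enolase ENO1 fell by 0.65, 0.67 and 0.36. In the hypoxia list 10 of 16 rose and 2 fell (62.5% and 12.5%, against the same shares of all genes). HIF1A, the oxygen-regulated factor, fell from 169 ± 4.61 to 114 ± 2.05 FPKM and its hydroxylase EGLN3 by 1.31, while ANKRD37, PDK1, CA9 and ADM rose by 1.27, 0.82, 0.75 and 0.63. Of the 13 proteins encoded in mitochondria, MT-ND4L, MT-ND4, MT-ND5 and MT-ND6 rose by 0.32 to 0.61 and MT-CO2, MT-CYB and MT-CO3 fell by 0.12 to 0.19. The call of MT-CO3 was lost without any single library but LX2 alone replicate 3 (edgeR adjusted p 0.0541 to 0.103). Of the nuclear genes of oxidative phosphorylation, 9 of 77 rose and 18 fell, together 35.1% against 31.7% of all genes. Cytosolic ribosomal proteins were called in 35.4% (10 rose and 18 fell of 79), initiation factors in 44.4% of 45, ribosome biogenesis genes in 5 of 20 and ZNF genes in 23.8% of 412, against the same 31.7%.

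The circadian list had 10 rises and no fall among 17 (58.8% against 15.3% of all genes rose; median 0.42). BHLHE40 went from 69.7 ± 0.645 to 147 ± 1.46 FPKM and the nuclear receptor NR1D1 (REV-ERB alpha) from 9.55 ± 0.202 to 21.0 ± 0.439 FPKM; PER2, PER3, RORA and DBP rose by 1.05, 0.87, 0.79 and 0.75. The core activator ARNTL did not pass (-0.20). Of 21 p53 targets, 11 rose and 1 fell (52.4% and 4.76%, against 15.3% and 16.4% of all genes). PMAIP1 (NOXA) went from 16.8 ± 1.80 to 36.4 ± 0.589 FPKM. GDF15 and SESN2 stand in both the p53 and the ATF4 list. CDKN1A was at 54.3, 54.8 and 52.9 FPKM alone and at 116, 115 and 46.2 FPKM in co-culture, where replicate 3 stood below the libraries alone, and it did not pass. Of 22 lysosome and autophagy genes, 11 rose and 4 fell (50.0% and 18.2%, against the same shares of all genes). GABARAPL1 and WIPI1 rose by 1.24 and 1.09. The protease gene CTSD fell from 174 ± 10.6 to 83.2 ± 12.2 FPKM, with 41.7% of its exon bases inside another gene. Among NRF2 targets 8 of 19 rose and 7 fell (42.1% and 36.8%, against the same shares of all genes). The aldo-keto reductases AKR1C3, AKR1C2 and AKR1C1, near-identical copies, fell by 3.01, 2.23 and 1.60 and NQO1 by 0.51, and heme oxygenase HMOX1 rose from 4.87 ± 0.481 to 12.2 ± 0.264 FPKM. The rises of AKR1B10, FTL and ABCC2 lay within the partner range. In retinoid metabolism, RDH10, which makes retinal, rose by 1.45 and the retinol dehydrogenase SDR16C5 fell from 6.35 ± 0.432 to 0.343, 0.443 and 0.243 FPKM, while ALDH1A1, DHRS9 and CRABP2 rose within the partner range.

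Among the most abundant genes that changed, ferritin heavy chain FTH1 fell from 2740.0 ± 34.7 to 2064 ± 27.7 FPKM and TMSB10, which binds actin monomers, from 2131 ± 10.3 to 1573 ± 2.37 FPKM, and GAPDH rose from 2109 ± 15.0 to 2559 ± 24.3 FPKM. BEST1, on the other strand, covers 62.4% of the exon bases of FTH1. Markers of hepatocyte, leukocyte, erythroid and endothelial cells in these libraries were mostly low. Of 20 hepatocyte markers 8 had no count in LX2 alone, ALB among them, and the sum over the list was 70.3 to 72.0 FPKM alone and 189.9 to 209 FPKM in co-culture. Most of that sum was CPS1, the urea cycle synthetase, with a mean of 67.6 ± 0.627 FPKM in LX2 alone, 198 ± 10.6 FPKM with HCCLM3 and 0.0582 FPKM in HCCLM3 alone. Of 18 epithelial markers, 5 had no count in LX2 alone and the sum was 81.4 to 85.6 FPKM alone and 99.8 to 112 FPKM in co-culture. Endothelial markers summed to 5.38 to 5.93 FPKM and 4.03 to 4.38 FPKM. Erythroid markers summed to 6 to 15 counts in a library of LX2 alone and 4 to 112 counts in a co-cultured library. The part of these other cells in the changes described was not tested.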

How the data were processed

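Poly(A) RNA of 12 libraries was sequenced in pairs of reads, 3 libraries in each of 4 groups; the 6 LX2 libraries are compared here. The submitters' processing notes name Bowtie 0.12.2, HISAT2 2.0, StringTie 1.3.0 and the mouse build mm8, with no roles. The gene IDs are human: 31565 of 32507 occur in GENCODE 29, where 86.8% match the deposited chromosome and a start or end on GRCh38. Raw counts per gene and FPKM were deposited by the authors, per the file headers; the counter and its strand setting were not given.

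Counts were tested with edgeR 4.0.16 (R 4.3.3; TMM, quasi-likelihood), on genes with 10 counts in 3 libraries, for the 2 LX2 groups only, with Benjamini-Hochberg adjustment at 0.05. FPKM served for levels. Each SE of a log2 fold change was derived as its absolute value divided by the square root of edgeR's F statistic. On simulated counts of 19214 genes the test found 23.9%, 65.7% and 97.0% of genes changed 1.5-fold, 2-fold and 4-fold, with 10 false calls among 134. The changed genes were a small part of the simulated ones, and none had low counts. In the data 31.7% of genes were called and genes with low counts were tested, so these shares hold for the simulated setting only. A count of 0 allows up to 3 counts, 0.0429 to 0.0485 CPM (counting error only). Alternatives were DESeq2 1.42.0, library totals, no filter, limma 3.58.1 on log2(FPKM + 1), a replicate block and each library left out. The replicate numbers did not pair the libraries.

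The 46 gene lists (2031 genes, 1882 with a count) and the comparison were chosen with earlier results of these data known. Named genes were the 12 largest rises and 12 largest falls whose groups did not overlap and reached 5 FPKM, the 5 most abundant called genes in each direction, 11 genes set by name (such as COL1A1 and TGFB1) and, per role of a list, up to 4 called genes in each direction with the smallest p and the members not called where 5 or fewer were not. A further 59 tested genes, most of them list members such as DDIT3, HLA-B and NR4A1, were named for their role after their values were seen. Some list members, counted in the lists, are not reported here by name. Promoters came from RefSeq (GRCh38.p14).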

Additional observations from a re-analysis of the deposited data

How the results depend on the processing

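The test with edgeR called 6283 genes. DESeq2 called 7138, of which 6243 were shared with edgeR, library totals without TMM factors 6227 (5930 shared, with the median of all genes at 0.04 in place of 0.01), and no filter on low counts 5402 (5328 shared). The replicate block called 4775 (4630 shared). The numbers do not pair the libraries: deviations from the group means correlated at -0.0371, 0.0138 and -0.0358. With 1 library left out, 4868 to 5227 genes were called, 2255 to 2573 higher and 2572 to 2654 lower. On the log2(FPKM + 1) scale limma called 6227, but a log2 fold change of at least 1 fell to 186 rises (from 880) and 199 falls (from 620); a pseudocount of 1 shrinks the change of low genes. Without rises within the partner range 6178 calls were left, and 6232 with the stricter limit of 1.01% in place of 3.12%; both were added after seeing the data. The 13 rises of the Notch list became 8 to 10 when 1 library was left out. For the other 11 lists followed (those of osmolytes and ions, ATF4, SREBP, interferon, antigen presentation, replication, mitosis, cAMP, heat shock, clock and histones), the calls in the main direction stayed within 1.5 times of their count in every alternative. Of 440 called named genes, 42 lost the call with a library left out and 47 in any alternative. TGFBR1 (-0.31, not called) ran from -0.60 to 0.40 with 1 library left out and was called higher without LX2 alone replicate 3 (edgeR adjusted p = 0.0207); the cause was not tested. Markers of HCCLM3 with at least 50 FPKM there gave the same median of 0.558% as those with at least 20, and a maximum of 1.01% in place of 3.12%.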

Other observations

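Genes outside the lists also differed; those given here were chosen after their values were seen. ALPL, an alkaline phosphatase of the cell surface, was at 18.4, 17.9 and 18.0 FPKM alone and at 92.3, 94.7 and 95.6 FPKM with HCCLM3 (log2 fold change 2.35, SE 0.03), against 0.0898 FPKM in HCCLM3 alone. TM4SF1, a membrane protein of endothelial and tumor cells, was at 17.6, 15.3 and 16.1 FPKM alone and at 90.7, 90.4 and 89.7 FPKM with HCCLM3. STC1, a secreted glycoprotein hormone, went from 3.83 ± 0.225 to 20.8 ± 0.533 FPKM and the phosphodiesterase PDE3A from 11.03 ± 0.290 to 46.2 ± 0.226 FPKM. The glycosyltransferase GALNT2 rose by 1.68 and the small Maf factor MAFK by 1.96. ASS1, another urea cycle enzyme, rose from 231 ± 2.24 to 342 ± 5.01 FPKM and was at 0.133 FPKM in HCCLM3 alone.

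Among the falls, FOLR1, a folate receptor, was at 452, 443 and 448 FPKM alone and at 175, 181 and 178 FPKM with HCCLM3. S100A4, a calcium-binding protein, went from 753 ± 7.87 to 293 ± 5.98 FPKM, TMSB4X, which binds actin monomers, from 1678 ± 32.9 to 798 ± 16.2 FPKM, and the tubulin gene TUBB from 661 ± 7.94 to 358 ± 4.52 FPKM. PTGS2, the inducible cyclooxygenase, fell by 1.59 and the organic anion carrier SLCO4A1 by 2.72. DRAM1, a lysosomal membrane protein, was uneven alone, at 58.3, 57.9 and 24.3 FPKM, and at 5.16, 4.62 and 5.31 FPKM with HCCLM3. Each of these genes passed edgeR's test and had groups that did not overlap, as 31.7% and 47.8% of all tested genes did; the choice of genes fixed this. TMSB4X and TUBB have near-identical copies elsewhere in the genome, and the counting could split reads between them.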
